A study of Rattus norvegicus with 18 samples.

Results

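The 10 genes described here are Psat1, Phgdh, Psph, Shmt2, Mthfd2, Cth, Pck2, Slc7a5, Slc3a2 and Slc7a1. Apart from Pck2, they make serine from a glycolytic intermediate, pass its carbon into the mitochondrial folate cycle, turn methionine sulfur into cysteine, or import amino acids. Pck2 makes phosphoenolpyruvate from oxaloacetate in the mitochondrion. All 10 were taken by symbol from the annotation of the array, each with its brightest probe set (a group of probes that report 1 transcript). The genes were not picked by their values, but the list was chosen with earlier results of these data known. All 10 were found, and all 10 were among the 9149 genes tested, with levels above log2 4 in all 18 arrays. Levels are deposited log2 values, on which a difference of 1 is a doubling, and levels at or below log2 4 are called background.

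The cells were NRK-52E, an established line from the kidney of an Osborne-Mendel rat, labelled as proximal tubule epithelium and grown to confluence. The medium held the organochlorine fungicide chlorothalonil at 1.1 µM with 0.1% DMSO for 6, 24 or 72 h, or DMSO alone for the same times. Per the labels this is the concentration with 10% inhibition at 72 h, so the treated cultures are a model of slight toxicity in 1 line. Each of the 6 groups had 3 arrays, named as biological replicates in the labels, and 3 studies were done at every time point, with no word on whether the cultures were separate. The p-values measure the spread between these arrays. A gene is said to rise or fall with treatment when its level is above or below that of DMSO cells of the same time. Such a rise can go with a level that falls over time in the treated cells. Changes between times are named as such. In whole cultures, fewer cells of a type and less RNA per cell cannot be told apart.

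Replicate arrays correlated at 0.992 to 0.998 over the genes tested. Of 14 proximal tubule markers with a probe set, 3 were above background in at least 3 arrays (Mme, Ggt1 and Aqp1), while Lrp2, Cubn, Slc34a1 and Hnf4a were at background in every array, so the labelled cell type is borne by few of its markers here. Of 9 renal epithelial markers, Krt8, Tjp1 and Ocln were above background in all 18 arrays and Krt18, Epcam, Cdh6, Pax2, Pax8 and Cldn1 in none. Of 9 fibroblast markers, Vim, Acta2, Col1a1 and Col3a1 were above background in all 18 arrays, Col1a2 in 13, Pdgfrb in 2 and Pdgfra, Dcn and Lum in none. The mean of the 9 fibroblast markers at 72 h was 6.67 to 6.80 in chlorothalonil arrays and 7.32 to 7.54 in DMSO arrays, with Col1a1, Col1a2 and Col3a1 called lower and Vim and Acta2 called higher. The mean of 4 leukocyte markers at 72 h was 4.36 to 4.61 in chlorothalonil arrays and 2.90 to 3.12 in DMSO arrays, with 1 of the 4, Cd68, above background and Ptprc and Itgam at background in all arrays. Spiked poly-A control transcripts were 0.785 log2 units brighter in treated than in DMSO arrays, averaged over the 3 times (exact permutation p = 0.00025, two-sided, n = 3 per group, the smallest p that 8000 arrangements allow). With each array scaled to these controls, all genes together had a median change of −0.62 at 6 h, −1.02 at 24 h and −0.60 at 72 h, against −0.0097, 0.057 and 0.074 on the deposited scale. Without DMSO replicate 1 of 24 h, the array with the dimmest poly-A controls, the scaled median at 24 h was −0.59. Hybridization controls averaged 11.07 to 11.99 in chlorothalonil and 10.35 to 11.71 in DMSO arrays at 6 h, the 10.35 in DMSO replicate 2. At 24 h they spanned 11.64 to 11.88 and 11.5 to 11.73, with overlap. At 72 h all treated arrays were above all DMSO arrays (11.81 to 11.86 against 11.51 to 11.61). The part of the markers and controls in the results below was not tested.

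Serine is made from 3-phosphoglycerate by PHGDH, PSAT1 and PSPH in turn, and SHMT2 splits it in the mitochondrion into glycine and a carbon unit that MTHFD2 oxidises on its folate carrier for the synthesis of purines and thymidylate. These genes, together with those of cysteine synthesis and of amino acid exchange, are textbook targets of ATF4, a transcription factor that is translated when the integrated stress response is on. Cells of the proximal tubule handle large flows of amino acids, and the kidney is a source of serine for the body.

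Promoter windows are shown for 5 genes because they had the largest rise at a time (Cth, Mthfd2), the largest rise of the transporters at 24 and 72 h (Slc7a5), or the letters of the ATF4 element (Pck2, Slc7a1). Each runs 5′ to 3′ from 250 bases before to 50 bases after a gene start of RefSeq on assembly GRCr8, and capitals mark the letters of a searched motif.
Mthfd2, chr4:117380301-117380600, - strand: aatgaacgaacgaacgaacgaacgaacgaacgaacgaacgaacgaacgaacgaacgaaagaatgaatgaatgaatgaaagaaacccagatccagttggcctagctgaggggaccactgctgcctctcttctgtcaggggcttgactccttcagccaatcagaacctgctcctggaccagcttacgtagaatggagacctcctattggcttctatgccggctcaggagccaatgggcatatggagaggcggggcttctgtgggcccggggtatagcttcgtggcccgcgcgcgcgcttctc
Slc7a5, chr19:66872363-66872662, - strand: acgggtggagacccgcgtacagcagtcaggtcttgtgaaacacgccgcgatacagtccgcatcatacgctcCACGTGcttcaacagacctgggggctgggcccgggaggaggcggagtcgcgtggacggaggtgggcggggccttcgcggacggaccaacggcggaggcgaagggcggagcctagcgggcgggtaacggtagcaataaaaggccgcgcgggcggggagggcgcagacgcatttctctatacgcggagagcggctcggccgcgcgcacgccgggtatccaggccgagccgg
Cth, chr2:249661017-249661316, - strand: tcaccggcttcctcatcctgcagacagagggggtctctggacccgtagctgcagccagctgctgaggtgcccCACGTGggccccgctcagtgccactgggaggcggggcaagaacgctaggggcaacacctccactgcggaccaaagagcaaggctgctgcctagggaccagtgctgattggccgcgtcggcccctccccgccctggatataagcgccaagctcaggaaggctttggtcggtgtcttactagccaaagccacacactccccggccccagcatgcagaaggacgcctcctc
Pck2, chr15:32997603-32997902, + strand: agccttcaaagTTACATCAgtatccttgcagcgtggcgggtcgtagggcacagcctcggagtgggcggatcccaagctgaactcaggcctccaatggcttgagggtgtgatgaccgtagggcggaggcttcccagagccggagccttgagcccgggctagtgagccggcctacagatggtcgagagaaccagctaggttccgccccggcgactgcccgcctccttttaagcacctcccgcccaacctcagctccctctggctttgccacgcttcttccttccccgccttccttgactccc
Slc7a1, chr12:11664238-11664537, + strand: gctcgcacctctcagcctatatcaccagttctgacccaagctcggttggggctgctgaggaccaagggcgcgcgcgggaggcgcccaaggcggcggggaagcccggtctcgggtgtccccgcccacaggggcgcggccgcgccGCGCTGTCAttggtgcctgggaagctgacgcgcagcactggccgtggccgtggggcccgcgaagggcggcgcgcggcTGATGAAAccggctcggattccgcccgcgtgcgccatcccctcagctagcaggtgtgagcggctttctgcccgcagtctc
The C/EBP-ATF response element was searched as TGATGNAA on both strands and was found in windows of 2 of the 10 genes. In Pck2 it read TTACATCA at −239 to −232, and in Slc7a1 it read TGATGAAA at −30 to −23, counted from the first transcribed base as 1. It was held by 3.98% of all 33469 windows of the same length and by 2.07% of the 7746 tested genes with a window. The E-box CACGTG, a palindrome bound by MYC and related factors, was in the windows of Cth at −178 to −173 and of Slc7a5 at −179 to −174, and in those of 10.7% of tested genes. The antioxidant response element, searched as TGACNNNGC on both strands, was in windows of Phgdh, Slc3a2 and Slc7a1 and in those of 15.5% of tested genes. None of these motifs overlapped another in the windows printed. A match says only that the letters are there.

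Chlorothalonil cells had more transcript than DMSO cells for most of these genes at 24 and 72 h, led by Mthfd2, Slc7a5, Cth and Shmt2 at 24 h and by Mthfd2 and Slc7a5 at 72 h, and at 6 h the largest rise was that of Cth. At 6 h, 6 of 10 were higher than in DMSO and 0 were lower on the deposited scale, where 27.8% of all genes tested were called higher and 31.8% lower, and scaled to the poly-A controls 1 was called higher, Cth. The call is limma's with an adjusted p under 0.05 over all genes. At 24 h, 8 of 10 were higher and 1 lower, beside 39.1% and 31.1% of all genes, while with poly-A scaling Mthfd2 and Slc7a5 stayed higher, Pck2 stayed lower and Slc7a1 was called lower as well. Those 24 h calls rest in part on DMSO replicate 1 of 24 h, without which 4 were higher and 2 lower on the poly-A scale. At 72 h, 9 of 10 were higher and 0 lower, beside 37.2% and 27.0% of all genes, while poly-A scaling left Mthfd2 and Slc7a5. The median change of the 10 genes was 0.32, 1.03 and 0.66 at the 3 times, against −0.0097, 0.057 and 0.074 for all genes. The 0 lower calls by limma at 6 h and 72 h were also 0 at an unadjusted p under 0.05 and with poly-A scaling, and were 3 and 1 when that array was also left out. Calls given gene by gene are those on the deposited scale.

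**Figure D1:**
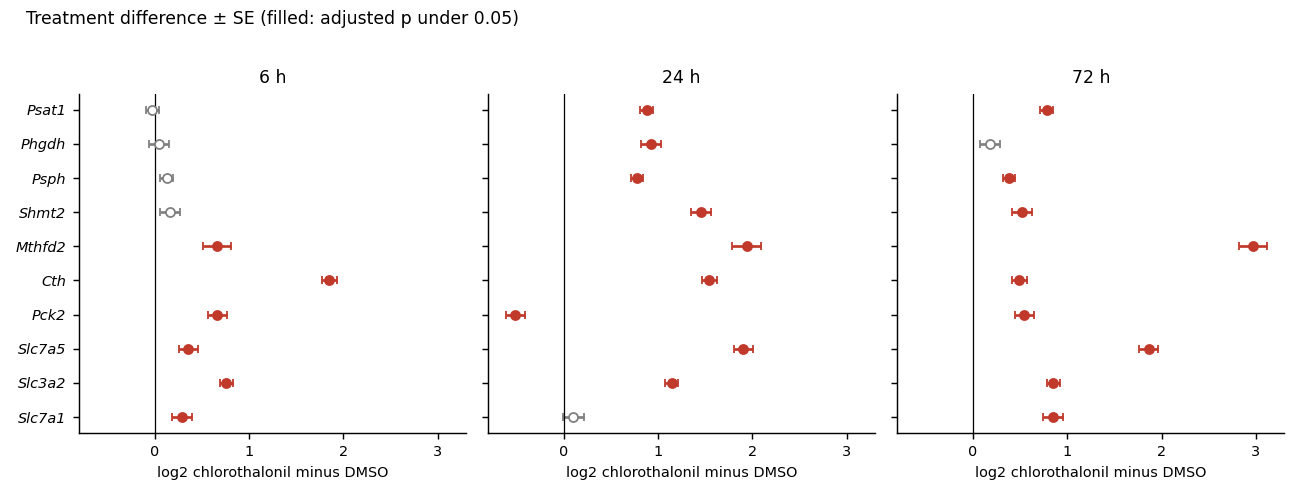
Difference in log2 level between chlorothalonil and DMSO cells at 6, 24 and 72 h for each gene (points, with bars of 1 standard error; filled points have a limma adjusted p under 0.05). On the deposited scale 6, 8 and 9 genes were called higher, and with arrays scaled to poly-A controls 1, 2 and 2. Pck2 lies below 0 at 24 h and Mthfd2 reaches 2.97 at 72 h.

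The 3 enzymes of serine synthesis did not differ from DMSO at 6 h beyond the test's threshold and were higher at 24 h. Psat1 (probe set 1372665_at), the aminotransferase of the pathway, had levels of 13.54, 13.48 and 13.53 in chlorothalonil cells at 6 h, against 13.60, 13.44 and 13.58 in DMSO cells. The levels at 24 h were 12.85, 12.62 and 12.83 in chlorothalonil cells and 11.93, 11.93 and 11.81 in DMSO cells. By 72 h they were 10.86, 10.98 and 11.00 in chlorothalonil cells and 10.18, 10.18 and 10.14 in DMSO cells. The groups overlapped at 6 h, and every treated array lay above every DMSO array at 24 h and at 72 h. Psat1 was above DMSO cells by 0.88 at 24 h (SE 0.069, limma adjusted p = 2.65e-08, 1.84-fold). At 72 h the gap was 0.78 (SE 0.069, adjusted p = 1.57e-07), after a difference of −0.02 at 6 h (adjusted p = 0.780). Within chlorothalonil cells the level of Psat1 changed by −0.75 from 6 to 24 h and by −1.82 from 24 to 72 h.

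Phgdh (1367811_at), the dehydrogenase that opens the pathway, rose at 24 h and was not called at the other times. Its levels at 24 h were 11.87, 11.57 and 11.71 in chlorothalonil cells and 10.95, 10.90 and 10.54 in DMSO cells, a gap of 0.92 (SE 0.10, adjusted p = 1.31e-06, 1.90-fold). Treated arrays were all higher than DMSO arrays there. At 72 h the levels were 10.14, 10.38 and 10.23 in chlorothalonil cells and 10.05, 10.13 and 10.01 in DMSO cells. These groups nearly met without overlap, and the difference of 0.18 (SE 0.10) had an adjusted p of 0.135, though it passed with median centring (0.23, adjusted p = 0.0378) and with array weights (0.19, adjusted p = 0.0364). At 6 h the groups overlapped, with a difference of 0.04 (adjusted p = 0.748).

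Psph (1375964_at), the phosphatase that releases serine, rose at 24 and 72 h, like Psat1. It lay at 11.84, 11.88 and 11.88 in chlorothalonil cells at 6 h and at 11.73, 11.72 and 11.77 in DMSO cells, which did not overlap but did not pass the test (0.13, SE 0.067, adjusted p = 0.116). At 24 h the levels were 11.08, 10.91 and 11.03 in chlorothalonil cells and 10.17, 10.29 and 10.24 in DMSO cells, a rise of 0.77 (adjusted p = 6.60e-08). At 72 h they were 9.07, 9.25 and 9.21 in chlorothalonil cells and 8.75, 8.72 and 8.91 in DMSO cells, a rise of 0.38 (adjusted p = 1.43e-04). The plot of levels by array shows the 3 enzymes side by side.

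**Figure D2:**
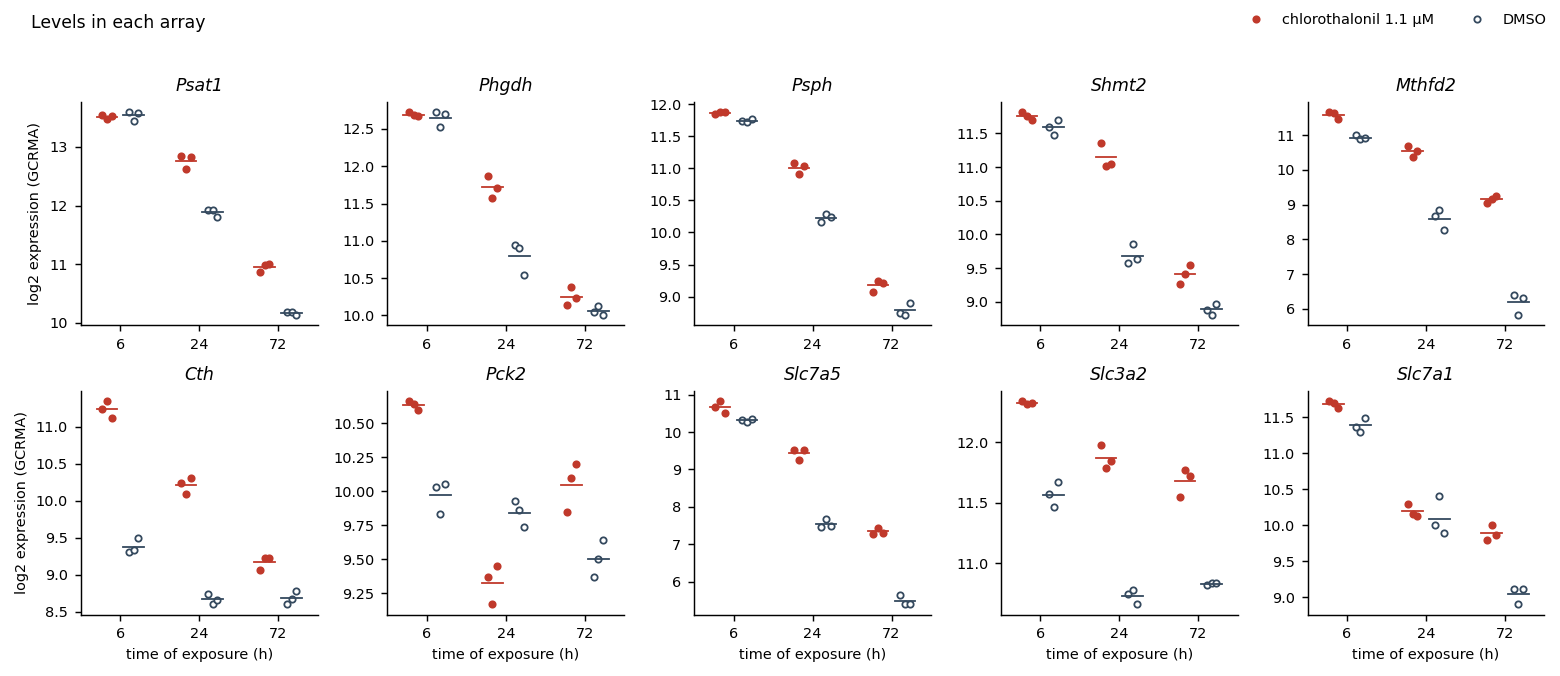
Log2 level of each gene in every array at 6, 24 and 72 h (filled red, chlorothalonil; open dark, DMSO; short lines, means of 3 arrays; each panel has its own axis, which does not start at 0). DMSO levels of Slc7a5 are 10.28 to 10.36 at 6 h and 5.39 to 5.64 at 72 h, and on the deposited scale the treated arrays of Pck2 lie below the DMSO arrays at 24 h and above them at 6 and 72 h.

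In the mitochondrial folate branch, Mthfd2 had the largest change of the 10 genes at 24 h and at 72 h, while Shmt2 was highest over DMSO at 24 h. Mthfd2 (1372808_at), the dehydrogenase and cyclohydrolase of the branch, had levels of 11.67, 11.62 and 11.45 in chlorothalonil cells at 6 h, against 10.99, 10.88 and 10.90 in DMSO cells. Its levels at 24 h were 10.67, 10.37 and 10.55 in chlorothalonil cells and 8.67, 8.84 and 8.27 in DMSO cells. At 72 h they were 9.05, 9.16 and 9.24 in chlorothalonil cells and 6.40, 5.83 and 6.32 in DMSO cells. The groups were apart at every time, and the gap was wider at each later time. Mthfd2 was above DMSO cells by 0.66 at 6 h (SE 0.15, adjusted p = 0.00137) and by 1.94 at 24 h (SE 0.15, adjusted p = 1.96e-08, 3.83-fold). At 72 h it was above them by 2.97 (SE 0.15, adjusted p = 4.14e-10, 7.81-fold). Within chlorothalonil cells the level of Mthfd2 changed by −1.05 from 6 to 24 h and by −1.38 from 24 to 72 h.

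Shmt2 (1388695_at), the mitochondrial serine hydroxymethyltransferase, stood at 11.82, 11.75 and 11.70 in chlorothalonil cells at 6 h and at 11.59, 11.48 and 11.70 in DMSO cells. Levels of 11.36, 11.02 and 11.05 in chlorothalonil cells at 24 h stood against 9.57, 9.86 and 9.64 in DMSO cells. Levels at 72 h were 9.26, 9.42 and 9.55 in chlorothalonil cells and 8.88, 8.81 and 8.97 in DMSO cells. The groups nearly met at 6 h and were apart at 24 and 72 h. Shmt2 rose by 1.45 at 24 h (SE 0.10, adjusted p = 8.74e-09, 2.74-fold) and by 0.52 at 72 h (SE 0.10, adjusted p = 4.61e-04), and its difference of 0.17 at 6 h did not pass (adjusted p = 0.183).

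The changes of the mitochondrial enzymes were set against those of their cytosolic counterparts. Mthfd1, the cytosolic folate enzyme with the corresponding activities, rose by 0.32, 0.83 and 0.68 at 6, 24 and 72 h. The change of Mthfd2 exceeded that of Mthfd1 by 1.24 on average over the 3 times (exact permutation p = 0.00025, the smallest that 8000 arrangements allow, adjusted over 3 pairs 0.00075, n = 3 arrays per group), and the excess was 0.34 at 6 h, 1.11 at 24 h and 2.29 at 72 h. Shmt1, the cytosolic hydroxymethyltransferase, rose by 0.80, 0.72 and 0.34. Shmt2 differed from it by −0.63 at 6 h, 0.74 at 24 h and 0.18 at 72 h. The mean difference of 0.095 did not pass the test (exact permutation p = 0.576, n = 3 arrays per group). In this mean, opposite signs cancel, so the test cannot say whether Shmt2 and Shmt1 changed alike at each time. Shmt2 minus Shmt1 was 0.87 to 1.04 in chlorothalonil and 1.41 to 1.67 in DMSO arrays at 6 h. At 24 h it was 1.44 to 1.67 and 0.62 to 1.045, and at 72 h the groups overlapped. Mthfd1l, the mitochondrial enzyme that releases formate, was not called at 6 h (0.26, adjusted p = 0.136) and rose by 1.32 at 24 h and 1.55 at 72 h. These pairs are differences between changes, so a common shift of an array, poly-A scaling included, leaves them as they are.

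**Figure D3:**
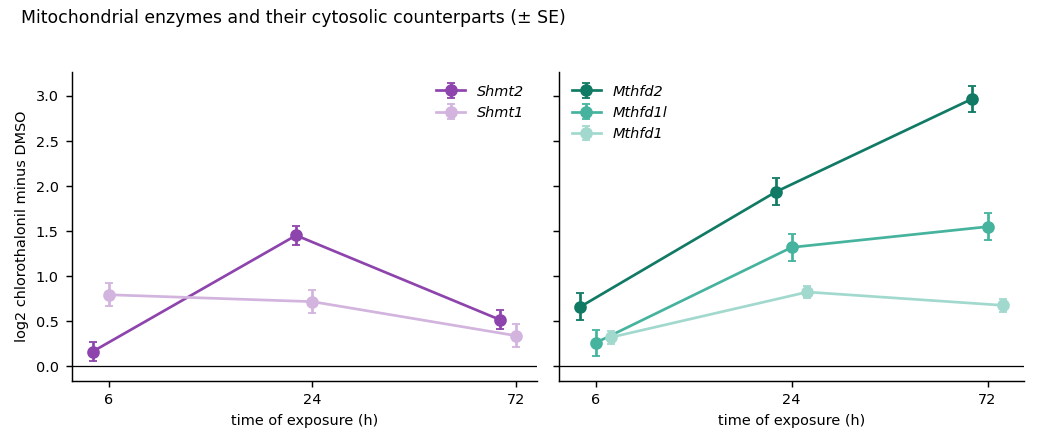
Log2 difference between chlorothalonil and DMSO cells at 6, 24 and 72 h (points, with bars of 1 standard error) for the mitochondrial Shmt2 and cytosolic Shmt1 on the left, and for the mitochondrial Mthfd2 and Mthfd1l and cytosolic Mthfd1 on the right. Mthfd2 lies above Mthfd1 at each time, by 2.29 at 72 h, while Shmt2 lies below Shmt1 at 6 h and above it at 24 h.

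Cth was the member with the largest rise at 6 h. Cth (1367838_at), the cystathionine gamma-lyase that makes cysteine, had levels of 11.24, 11.34 and 11.12 in chlorothalonil cells at 6 h, against 9.31, 9.34 and 9.49 in DMSO cells. By 24 h Cth had 10.24, 10.09 and 10.30 in chlorothalonil cells and 8.74, 8.60 and 8.66 in DMSO cells. By 72 h Cth had 9.07, 9.23 and 9.23 in chlorothalonil cells and 8.61, 8.67 and 8.78 in DMSO cells. Treated arrays were higher at every time, and at 6 h they were also above all arrays of every other group. Cth rose by 1.85 at 6 h (SE 0.081, adjusted p = 2.11e-10, 3.61-fold), by 1.54 at 24 h (SE 0.081, adjusted p = 3.62e-10, 2.91-fold) and by 0.49 at 72 h (SE 0.081, adjusted p = 8.19e-05, 1.41-fold).

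Pck2 was the member that turned direction. Pck2 (1375213_at), the mitochondrial enzyme that makes phosphoenolpyruvate from oxaloacetate, had levels of 10.66, 10.64 and 10.60 in chlorothalonil cells at 6 h, against 10.03, 9.83 and 10.05 in DMSO cells. Its 24 h levels were 9.37, 9.17 and 9.45 in chlorothalonil cells and 9.93, 9.86 and 9.74 in DMSO cells. Its 72 h levels were 9.85, 10.10 and 10.20 in chlorothalonil cells and 9.37, 9.50 and 9.64 in DMSO cells. All treated arrays were above DMSO at 6 and 72 h and all below it at 24 h. It rose by 0.66 at 6 h (SE 0.10, adjusted p = 4.42e-05), fell by 0.52 at 24 h (SE 0.10, adjusted p = 3.02e-04) and rose by 0.54 at 72 h (SE 0.10, adjusted p = 2.34e-04). A second probe set, 1376247_at, gave 0.88, −0.33 and 0.57 at these times, and its value at 24 h did not pass (adjusted p = 0.254). Pck1, the cytosolic enzyme, was at background in all 18 arrays (2.12 to 2.26), so the mean difference of 0.24 between the changes of Pck2 and Pck1 has a signal from Pck2 alone (exact permutation p = 0.127, adjusted over 3 pairs 0.191, n = 3 arrays per group). The differences were 0.67 at 6 h, −0.48 at 24 h and 0.54 at 72 h, and opposite signs partly cancel in their mean.

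Of the uptake genes, both subunits of the large neutral amino acid exchanger rose at all 3 times on the deposited scale. Slc7a5 (1387280_a_at), its transport subunit LAT1, had levels of 10.68, 10.82 and 10.50 in chlorothalonil cells at 6 h, against 10.31, 10.28 and 10.36 in DMSO cells. After 24 h they were 9.53, 9.25 and 9.53 in chlorothalonil cells and 7.45, 7.67 and 7.48 in DMSO cells. After 72 h they were 7.28, 7.44 and 7.30 in chlorothalonil cells and 5.64, 5.39 and 5.40 in DMSO cells. All treated arrays were above all DMSO arrays of their time, and the treated arrays at 72 h were near the DMSO arrays of 24 h. Slc7a5 rose by 0.35 at 6 h (SE 0.10, adjusted p = 0.00699), by 1.90 at 24 h (SE 0.10, adjusted p = 4.10e-10, 3.74-fold) and by 1.86 at 72 h (SE 0.10, adjusted p = 9.03e-10, 3.64-fold). With poly-A scaling the difference at 6 h was −0.26 and not called (adjusted p = 0.503), and the rises at 24 and 72 h still passed.

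Slc3a2 (1398771_at), the CD98 heavy chain that carries LAT1 to the cell surface, had levels of 12.34, 12.32 and 12.33 in chlorothalonil cells at 6 h, against 11.57, 11.47 and 11.67 in DMSO cells. For Slc3a2 at 24 h they were 11.98, 11.79 and 11.85 in chlorothalonil cells and 10.75, 10.78 and 10.66 in DMSO cells. For Slc3a2 at 72 h they were 11.55, 11.77 and 11.72 in chlorothalonil cells and 10.82, 10.84 and 10.84 in DMSO cells. The groups stayed apart throughout, and treated levels at 72 h reached into the range of DMSO cells at 6 h. Slc3a2 rose by 0.76 (adjusted p = 3.40e-07), 1.14 (adjusted p = 1.83e-09) and 0.85 (adjusted p = 7.52e-08) at the 3 times, each with an SE of 0.071. With poly-A scaling these values were 0.14, 0.068 and 0.18, and none passed.

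Slc7a1 (1368391_at), the carrier of arginine and lysine, had its largest difference at 72 h. Its levels there were 9.80, 10.00 and 9.87 in chlorothalonil cells and 9.12, 8.90 and 9.11 in DMSO cells, a rise of 0.85 (SE 0.11, adjusted p = 7.56e-06). At 24 h it ranged over 10.13 to 10.29 in chlorothalonil cells and 9.89 to 10.40 in DMSO cells, which overlapped (0.10, adjusted p = 0.416). Without DMSO replicate 2 of 24 h, the highest DMSO array, that difference was 0.25 and passed. At 6 h the levels were 11.72, 11.70 and 11.63 in chlorothalonil cells and 11.37, 11.30 and 11.49 in DMSO cells. That rise of 0.29 had an adjusted p of 0.0319 and no longer passed without replicate 1 or 2 of chlorothalonil or replicate 1 or 2 of DMSO at 6 h, with values of 0.25 to 0.34 over all single omissions. A second probe set, 1368392_at, gave 0.56, −0.088 and 0.89 at 6, 24 and 72 h.

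Most of these genes fell with time in DMSO cells. On the deposited scale 6 of 10 were already called higher with treatment at 6 h, the first time measured. In DMSO, 9 of 10 were lower at 24 h than at 6 h, when 40.0% of all genes were called lower, with a median change of −1.58 against −0.054 for all genes. Between 24 and 72 h a further fall was called for 8 of 10, beside 24.3% of all genes, with a median of −0.93 against 0.079. The exceptions were Pck2 in the first interval (−0.13, adjusted p = 0.271) and Cth and Slc3a2 in the later one (0.02 and 0.10, adjusted p = 0.857 and 0.240). With poly-A scaling, those 3 values were 0.067, −0.20 and −0.12, and 3 falls were no longer called, those of Cth (−0.52, adjusted p = 0.225) and Slc3a2 (−0.64, adjusted p = 0.120) at 24 h and of Pck2 at 72 h (−0.56, adjusted p = 0.287). When DMSO replicate 1 of 24 h was also left out, Cth and Slc3a2 at 24 h passed again, Pck2 at 72 h did not (−0.11), and Phgdh at 72 h no longer passed (−0.47, adjusted p = 0.114). Over the whole course in DMSO cells, the level at 72 h minus that at 6 h was −4.84 for Slc7a5, −4.74 for Mthfd2, −0.70 for Cth and −0.47 for Pck2.

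In chlorothalonil cells the same genes also fell with time. At 24 h, 10 of 10 genes were lower than at 6 h, beside 24.9% of all genes, but by less than in DMSO for Psat1, Phgdh, Psph, Shmt2, Mthfd2, Slc7a5 and Slc3a2. With poly-A scaling the fall of Slc3a2 was not called (−0.72, adjusted p = 0.120). Shmt2 fell by 0.61 in treated cells and fell by 1.90 in DMSO cells. Slc7a5 fell by 1.23 in treated cells and fell by 2.78 in DMSO cells. The change of Pck2 was −1.30 in treated cells and −0.13 in DMSO cells. From 24 to 72 h, 1 of 10, Pck2, was higher in treated cells, beside 39.5% of all genes. Its second probe set, 1376247_at, gave 0.20 there and did not pass (adjusted p = 0.554). Falls were called for 9 of 10, beside 33.3% of all genes. The smallest of these falls, −0.19 for Slc3a2 and −0.31 for Slc7a1, did not pass without replicate 1 of chlorothalonil at 24 h (−0.14 and −0.26) or at 72 h (−0.12 and −0.26), nor that of Slc7a1 without replicate 3 at 72 h (−0.29). With poly-A scaling they were −0.0092 and −0.13, neither of them called, and that of Slc3a2 also did not pass with array weights (−0.13, adjusted p = 0.0604) or with the compared groups fitted alone (−0.19, adjusted p = 0.0943). Shmt2 then changed by −1.73 in treated cells and −0.80 in DMSO cells. Phgdh changed by −1.47 in treated cells and −0.73 in DMSO cells. For Mthfd2 the values were −1.38 in treated cells and −2.41 in DMSO cells.

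**Figure D4:**
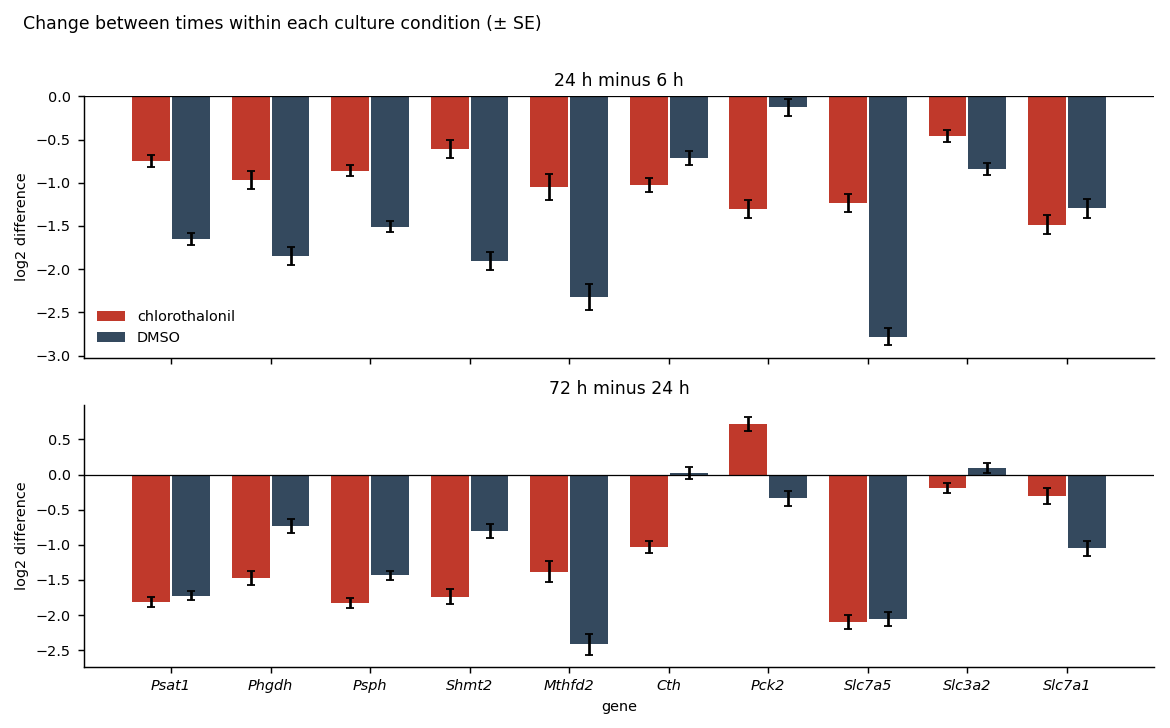
Log2 difference between adjacent times within chlorothalonil cells (red) and within DMSO cells (dark), 24 h minus 6 h above and 72 h minus 24 h below, with bars of 1 standard error from the fit. In the upper panel the DMSO bar is the longer for 7 of 10 genes. In the lower panel Pck2 is higher by 0.72 in treated cells and lower by 0.34 in DMSO cells. A second Pck2 probe set, not drawn, gave 0.20 in treated cells, which was not called, and −0.69 in DMSO cells.

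The mean of treated cells at 24 h lay between the DMSO means of 24 h and 6 h for 7 of 10 genes, all but Cth, Pck2 and Slc3a2. The mean of treated cells at 72 h lay between the DMSO means of 72 h and 24 h for 6 of 10, all of those 7 except Mthfd2, whose treated level at 72 h was above DMSO at 24 h. Ordered by mean, Psph, Shmt2 and Slc7a5 ran from chlorothalonil at 6 h over DMSO at 6 h, chlorothalonil at 24 h, DMSO at 24 h and chlorothalonil at 72 h to DMSO at 72 h, and no neighbours in that order overlapped. Phgdh and Slc7a1 had that order too, but chlorothalonil and DMSO overlapped at 6 h for Phgdh and at 24 h for Slc7a1, and DMSO at 24 h overlapped with chlorothalonil at 72 h for Slc7a1. Psat1 differed in that the 6 h groups, which overlapped, were exchanged. Pck2 had the narrowest span of group means, 1.30, and Mthfd2 the widest, 5.40.

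The treatment difference itself changed between times. From 6 to 24 h it grew for 7 of 10 genes and shrank for 2, where 39.6% of all genes were called to grow and 23.4% to shrink. Slc7a5 gained 1.55 (SE 0.14, adjusted p = 3.85e-07), Shmt2 1.29 (SE 0.15, adjusted p = 2.85e-06) and Mthfd2 1.28 (SE 0.21, adjusted p = 9.41e-05). Pck2 lost ground in the same interval (−1.18, SE 0.14, adjusted p = 5.03e-06). The value for Cth was −0.31 (adjusted p = 0.0289), which did not pass with median centring (−0.21, adjusted p = 0.154) or when 1 of 6 arrays was omitted, namely replicates 1 and 2 of both groups at 6 h and, at 24 h, the second chlorothalonil and the first DMSO array (−0.37 to −0.25 over all single omissions). From 24 to 72 h, in a comparison that uses the same 24 h arrays, the difference grew for 3 genes and shrank for 5, beside 27.9% and 29.8% of all genes. Those that grew were Pck2 (1.06, adjusted p = 1.62e-05), Mthfd2 (1.03, adjusted p = 6.96e-04) and Slc7a1 (0.75, adjusted p = 7.82e-04). The largest loss was that of Cth (−1.05, adjusted p = 2.12e-06), followed by Shmt2 (−0.93) and Phgdh (−0.74), while Psat1 (−0.10) and Slc7a5 (−0.04) were not called. With poly-A scaling, 1 gene was called in the first interval and 2 in the later one, and when DMSO replicate 1 of 24 h was also left out, 6 and 4.

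Other genes of the same metabolism were read from 3 lists, in which only genes above background were tested. Of all 9149 genes 27.8%, 39.1% and 37.2% were called higher at 6, 24 and 72 h and 31.8%, 31.1% and 27.0% lower, the shares beside which the counts of each list stand. Of 35 further folate and serine genes 23 were tested, and 9 were higher and 2 lower at 6 h, 13 and 1 at 24 h, and 13 and 3 at 72 h, with medians of 0.14, 0.43 and 0.34. Cdo1, which oxidises cysteine, had the highest value at 6 h, at least 4.04-fold over a DMSO group at background, and was at background in both groups later. Gart, a purine synthesis enzyme that uses formyl folate, led at 24 h with a rise of 1.85 (SE 0.10, adjusted p = 4.83e-10). Slc46a1, the proton-coupled folate carrier, rose by 1.60 at 6 h and had the lowest value at 72 h, where it fell by 2.40 (SE 0.21, adjusted p = 1.16e-07), and at 24 h, where it was not called (−0.46, adjusted p = 0.0572). Amt, of the glycine cleavage system, had the lowest value at 6 h (−0.40, adjusted p = 0.152). Aldh1l2, Cbs and Gldc did not pass the filter.

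Of 20 amino acid enzymes 14 were tested, with 6 higher and 1 lower at 6 h, 9 and 3 at 24 h, and 9 and 5 at 72 h, beside 27.8%, 39.1% and 37.2% of all genes higher and 31.8%, 31.1% and 27.0% lower. Asns, the asparagine synthetase, had the lowest value at 6 h (−0.18, adjusted p = 0.0603) and rose by 1.12 at 24 h and 2.32 at 72 h (SE 0.078, adjusted p = 9.52e-12). Bcat1, the cytosolic branched-chain aminotransferase, had the highest value of its list at each time. It rose by 0.91 at 6 h, by 4.14 at 24 h and at least 4.57-fold at 72 h over DMSO cells at background. At 24 h its DMSO mean was already near background (4.12, SD 0.81). Glul, the glutamine synthetase, was lowest at 24 and 72 h (−0.53 and −0.60).

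Among the other amino acid transporters falls outnumbered rises at 24 h. Of 30 on the list 14 were tested, with 5 higher and 4 lower at 6 h, 4 and 9 at 24 h, and 5 and 3 at 72 h, and a median of −0.42 at 24 h. At 6 and 72 h these counts were near the shares of all genes (27.8% higher and 31.8% lower, and 37.2% and 27.0%), and at 24 h those shares were 39.1% and 31.1%. Slc7a11, the cystine carrier that also pairs with Slc3a2, rose by 0.91 at 6 h and 2.39 at 24 h (SE 0.14, adjusted p = 8.84e-10). Its DMSO mean at 24 h was 4.85, near background, and both groups were at background at 72 h. Slc1a4, a carrier of serine and alanine, fell by 0.99 at 24 h and rose by 1.29 at 72 h, after −0.06 at 6 h (adjusted p = 0.625). Slc1a5, the glutamine carrier, rose by 0.26, 0.30 and 0.57. Slc38a2, the adaptive carrier of small neutral amino acids, rose by 0.64 at 6 h and fell by 0.17 at 24 h and 0.72 at 72 h. Slc7a9, a cystine carrier, led at 6 h with 1.73, Slc43a2 was lowest at 6 h with −0.85, and Slc38a1 was lowest at 24 h with −1.40. Slc43a1 did not pass the filter.

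Of 20 factors of the integrated stress response 19 were tested, with 11 higher and 4 lower at 6 h, 12 and 4 at 24 h, and 13 and 4 at 72 h, where 27.8%, 39.1% and 37.2% of all genes were higher and 31.8%, 31.1% and 27.0% lower. Atf4 rose by 0.58, 0.79 and 0.93 at 6, 24 and 72 h. Ddit3, the CHOP factor, rose by 1.99, 1.98 and 1.50. Trib3, a pseudokinase induced by both, rose by 0.96, 1.38 and 4.11. Its means were 10.94, 10.11 and 8.99 in chlorothalonil cells and 9.98, 8.73 and 4.88 in DMSO cells, the last near background. Atf3 had the highest value of the list at each time (6.23 at 6 h, SE 0.23), while Eif2ak4, the kinase that senses uncharged tRNA, was lowest at 6 and 24 h (−0.97 and −1.54) and Nupr1 at 72 h (−1.42). Poly-A scaling takes the same amount, 0.61 at 6 h, 1.07 at 24 h and 0.67 at 72 h, from every treatment difference in these lists.

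**Figure D5:**
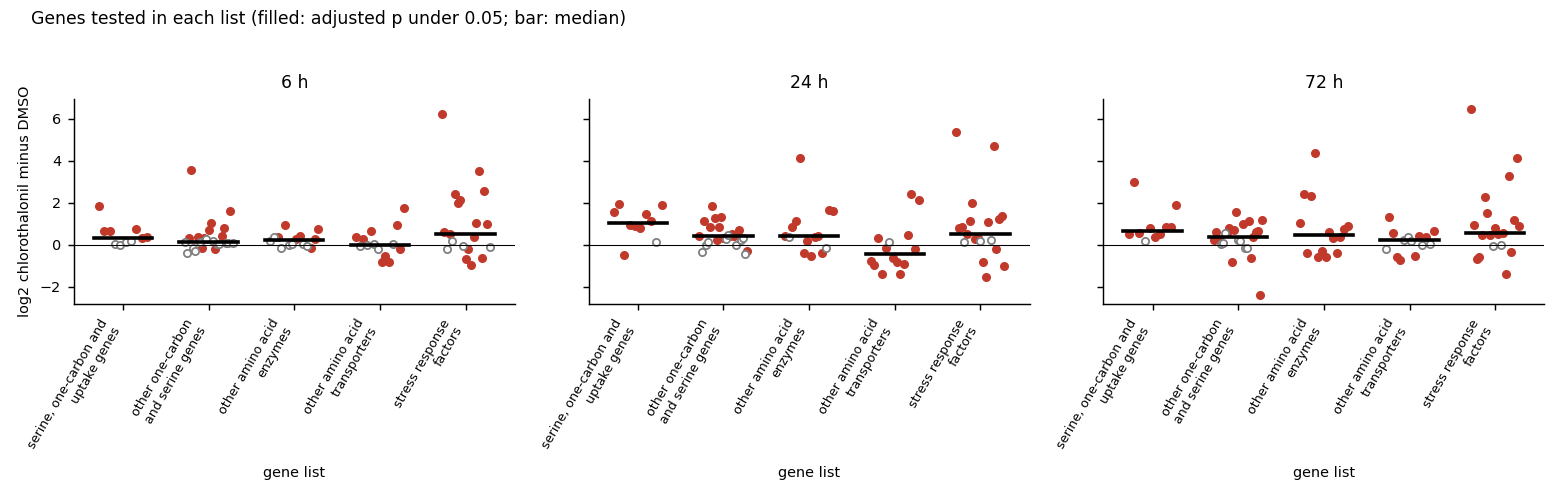
Log2 difference between chlorothalonil and DMSO cells at 6, 24 and 72 h for every tested gene (points) of the 10 genes described here, of the 3 lists of related genes and of the stress response factors (filled points have a limma adjusted p under 0.05; black lines are list medians; genes at background are plotted at their fitted value). The median of the 10 genes is 0.32, 1.03 and 0.66 at the 3 times on the deposited scale, and that of the other transporters is −0.42 at 24 h.

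Likeness of course was measured as the root mean square difference of the 6 group means after each gene was centred on its own mean. Psat1 and Psph were each other's nearest of all 9149 genes (0.15 log2 units over 6 groups), with Cars1 and Tpmt next to Psat1 and Snrpa and Cars1 next to Psph. Shmt2 was nearest to Pa2g4 (0.16), Yars1 and Dph3. Phgdh had Shmt2 as its nearest member (0.20), between Prdm4 and Snrpa. Mthfd2 and Slc7a5 both had Atf2 first (0.35 and 0.24) and Mbnl3 in the third place, and Slc7a5 itself was next after Atf2 for Mthfd2. The nearest genes of Cth were Baiap2 (0.15), Plk3 and Shc4, those of Pck2 were Slco3a1 (0.13), Septin6 and Dxo, those of Slc3a2 were Clpp (0.11), Elp5 and Nop58, and those of Slc7a1 were Uhrf1 (0.21), Aldh18a1 and Lrp8. For the other members the nearest member stood further down. Its place was 5 for Slc7a5, 9 for Shmt2, 57 for Slc7a1, 182 for Cth, 1721 for Slc3a2 and 2632 for Pck2. The measure describes 6 group means of 18 arrays and has no test.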

How the data were processed

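Expression was measured on 18 Affymetrix rat arrays, from 6 µg total RNA per the labels' protocols. The authors deposited log2 values of 31099 probe sets per the submitters' processing notes by GCRMA (version and settings not given in the sources used here). GCRMA removes a sequence-modelled background and brings arrays to a common distribution, which would hide a change common to most transcripts. In the annotation 20832 probe sets had 1 symbol, 436 several and 9831 none. Of those with 1 symbol, 20764 were matched through Entrez identifiers to RefSeq of GRCr8 and took its symbol. Probe sets above log2 4 in at least 3 arrays were kept (16686, of which 12693 had 1 symbol), and the brightest stood for each of 9149 genes. limma 3.58.1 in R 4.3.3 fitted 6 group means to all arrays, two-sided, with Benjamini-Hochberg adjustment over all genes and 12 residual degrees of freedom. The model was tested on simulated data. Gene pairs and controls were tested by exact permutation within times. All members were named at every time, as were 16 fixed related genes and the highest and lowest of each related list. The members and lists were chosen with earlier results of these data known. Number of arrays and signal over background limit the precision. Alternatives were 2 other filters, quantile normalization, centring, poly-A scaling (24 probe sets), a replicate block, array weights, a trended robust fit, fits of the groups compared alone, second probe sets, and single arrays left out.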

Additional observations from a re-analysis of the deposited data

Results flagged for a closer look

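The treatment difference of 9 of the 10 genes changed between 6 and 24 h, by limma's test of the difference itself. It changed by 0.90 for Psat1, 0.88 for Phgdh, 0.65 for Psph, 1.29 for Shmt2, 1.28 for Mthfd2, −0.31 for Cth, −1.18 for Pck2, 1.55 for Slc7a5 and 0.38 for Slc3a2. Between 24 and 72 h that of 8 changed, by −0.74 for Phgdh, −0.39 for Psph, −0.93 for Shmt2, 1.03 for Mthfd2, −1.05 for Cth, 1.06 for Pck2, −0.29 for Slc3a2 and 0.75 for Slc7a1. Pck2 changed in opposite directions in the 2 intervals. Slc7a1, not called between 6 and 24 h, was called there with its second probe set, 1368392_at (−0.65, adjusted p = 0.0179).

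The spiked poly-A controls, which belong to no gene of the cells, were brighter in chlorothalonil arrays than in DMSO arrays by 0.785 on average (0.61 at 6 h, 1.07 at 24 h and 0.67 at 72 h). At 24 h they averaged 8.97 in DMSO replicate 1 and 10.1 and 10.3 in the other DMSO arrays. Groups of 3 arrays are too small for a search for single outlying arrays.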

How the results depend on the processing

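The filters, the trended robust fit, the fits of the groups compared alone and centring left the number of genes called in each treatment comparison within 1.5 times of the value given. Scaling to the poly-A controls did not. With it, 1 gene was called higher at 6 h, 2 higher and 2 lower at 24 h and 2 higher at 72 h, and the treatment difference changed for 1 gene between 6 and 24 h and for 2 between 24 and 72 h. When DMSO replicate 1 of 24 h, the array with the dimmest controls, was also left out, which was chosen after seeing the data, the calls were 1 higher and 3 lower at 6 h, 4 higher and 2 lower at 24 h, 2 higher and 1 lower at 72 h, with 6 changed differences between 6 and 24 h and 4 between 24 and 72 h. The cause was not tested beyond the shift of every gene of an array by its controls.

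Values that turned sign with poly-A scaling were, at 6 h, Phgdh −0.57, Psph −0.49, Shmt2 −0.45, Slc7a5 −0.26 and Slc7a1 −0.32 (the same without the 24 h array). At 24 h they were Psat1 −0.20, Phgdh −0.15, Psph −0.30 and Slc7a1 −0.97, and without that array 0.23, 0.33, 0.075 and −0.61, so that 1 of the 4 stayed turned. At 72 h they were Phgdh −0.49, Psph −0.29, Shmt2 −0.15, Cth −0.18 and Pck2 −0.13. Changes of the difference that turned were Slc3a2 −0.077 between 6 and 24 h, and Psat1 0.31, Psph 0.010, Slc7a5 0.36 and Slc3a2 0.11 between 24 and 72 h. Without that array these 5 were 0.34, −0.12, −0.37, 0.00090 and −0.30, with Slc7a5 alone still turned. In DMSO cells Pck2 turned to 0.067 at 24 h against 6 h, and Cth and Slc3a2 to −0.20 and −0.12 at 72 h against 24 h, and without that array these 3 were −0.38, 0.24 and 0.29.

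Small uncalled values turned with other settings too. Phgdh at 6 h was −0.031 after quantile normalization and −0.011 with array weights. Cth in DMSO cells at 72 h against 24 h was −0.046 and −0.013 with the same settings. The change for Slc7a5 between 24 and 72 h was 0.015 with array weights. Second probe sets gave −0.0875 for Slc7a1 at 24 h and 0.25 for Pck2 in DMSO cells at 24 h against 6 h. With single arrays left out, Psat1 at 6 h ranged over −0.075 to 0.0057, Phgdh at 6 h over −0.021 to 0.083, Slc7a1 at 24 h over −0.00090 to 0.25, the change for Slc7a5 between 24 and 72 h over −0.13 to 0.044, and Cth in DMSO cells at 72 h over −0.030 to 0.059. The change for Cth between 6 and 24 h (−0.37 to −0.25) did not pass without replicate 1 or 2 of either group at 6 h, chlorothalonil replicate 2 or DMSO replicate 1 at 24 h. That for Slc3a2 between 24 and 72 h (−0.33 to −0.22) did not pass without chlorothalonil replicate 1 or DMSO replicate 3 at 24 h, or chlorothalonil replicate 1 at 72 h. After quantile normalization the same change was −0.205 and did not pass either (adjusted p = 0.0664).

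Treated and DMSO arrays share replicate numbers at each time. Same-numbered arrays did not deviate together in every pair (correlations of −0.041, 0.052 and −0.029 at 6 h, 0.12, −0.0097 and 0.21 at 24 h, and 0.31, −0.044 and 0.075 at 72 h), so the number was not taken as a pairing. With a replicate block within time, 5 genes were called higher at 6 h, 8 higher and 1 lower at 24 h and 9 higher at 72 h, and Slc7a1 at 6 h was no longer called (0.29, adjusted p = 0.0606).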

Other observations

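Another probe set for Slc7a1, 1387167_at, lay between 2.21 and 4.97 in the 18 arrays and did not pass the filter. No difference is given for it.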
